A study of Rattus norvegicus with 6 samples.

Results

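The inhibin, activin and follistatin system of the ovary was followed through 9 genes, Inha, Inhba, Inhbb, Fst, Fstl3, Fstl1, Acvr1, Acvr2a and Acvr2b. The members were all probe sets whose only gene symbol in the array annotation was one of these 9 names. This rule used no measured value and gave 16 probe sets, for 9 of the 14217 genes that the annotation names in this way. Whole ovaries of 4-day-old female Sprague-Dawley rats were kept in organ culture for 48 h, and both groups had the same culture medium with albumin, a lipid-rich albumin, ascorbic acid, transferrin and antibiotics. The control group (3 arrays) received no factor, and the NT3 group (3 arrays) received recombinant human neurotrophin-3 at 50 ng/ml. RNA of 2 to 3 ovaries was pooled for each array. The study's title concerns the step from primordial to primary follicles, and its design sets the NT3 samples against the controls. The replicates are labelled biological, with no word on animals or litters, so that p-values measure the spread between these samples only.

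Inhibins and activins are dimeric hormones of the TGF-beta family. Inhibin pairs the alpha subunit, encoded by Inha, with a beta subunit from Inhba or Inhbb, whereas activin pairs beta subunits with each other. Granulosa cells of growing follicles are the main ovarian source of both. Activin raises and inhibin lowers the release of FSH from the pituitary, and within the ovary activin also acts locally on granulosa cells. Follistatin, from Fst, and the related protein from Fstl3 bind activin and keep it from its receptors. Activin binds a type II receptor, from Acvr2a or Acvr2b, which then recruits and phosphorylates a type I receptor, and inhibin competes for the type II receptors with the help of betaglycan.

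Values are MAS5 signals, the brightness that the array software gives for a probe set after scaling each array to a common mean. They are comparable between arrays for the same probe set but not between probe sets, so no gene's level is set against another's. The number of arrays limits the precision of every value. Control replicate 2 stood apart in RNA quality, with a 3′ to 5′ signal ratio of 6.83 for beta-actin and 1.70 for Gapdh, against 2.42 to 2.91 and 1.09 to 1.25 on the other arrays, and log2 fold changes are given with and without it where it turned their sign or moved them by over 1.5 times. Some markers of the labelled tissue were bright on every array, such as the oocyte gene Zp3 at 3544 to 4501 and the granulosa gene Foxl2 at 479 to 767. Others fell under 41.3, the signal used below as a filter. The oocyte gene Kit had 23.2 in control replicate 2, and the granulosa gene Cyp19a1 had 13.8 to 26.0. In whole ovaries, fewer cells of a type and less RNA per cell cannot be told apart.

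None of the 9 genes passed the test between NT3-treated and control ovaries. Of the 16 probe sets, 14 passed the filter on low signal and were tested, and the second probe sets of Inhba and Fstl3 lay below it. By limma, 0 of the 14 had an adjusted p under 0.05, and the same held for 0% of all 18625 probe sets tested. At an unadjusted p under 0.05 there were 0 of 14, against 1.29% of all tested probe sets. The 2 groups did not overlap in 1 of the 14, a probe set of Acvr1, against 5.83% of all tested probe sets. Of the 14, 7 had a higher and 7 a lower fitted value in NT3. The median log2 fold change of the 14 was 0.0036, beside -0.00054 over all tested probe sets. This split and this median hold for all 6 arrays only, since the signs of several members turned without control replicate 2, as given below. The median standard error of the 14 was 0.20, so that small changes of single genes could not have been seen here. A p that misses the threshold does not show that the groups were alike.

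**Figure D1:**
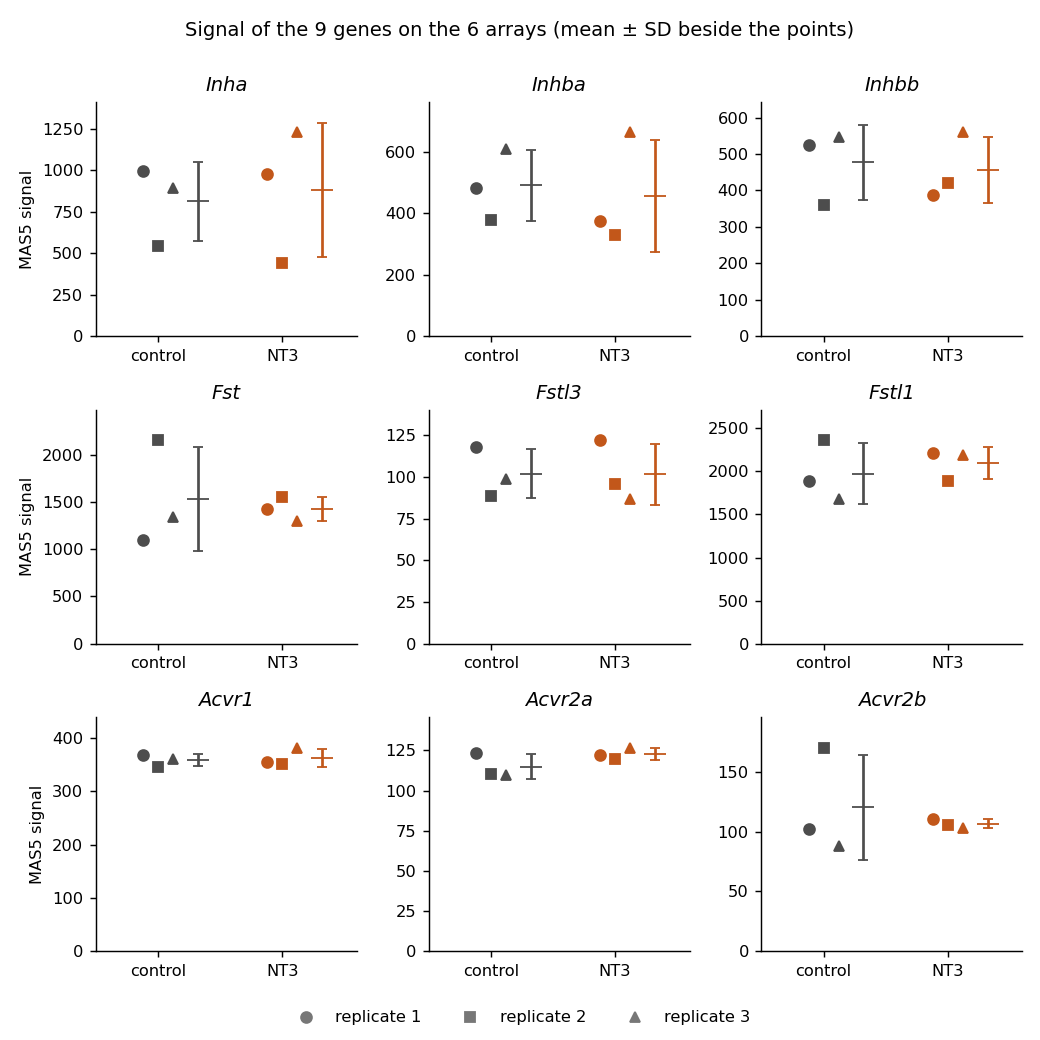
MAS5 signal (vertical axis, linear, from 0) of the 9 genes on the 3 control and 3 NT3 arrays, each by its probe set with the highest mean signal; marker shapes give the replicate number and bars the mean ± SD. Control and NT3 points overlap in all 9 panels, and for Inha both arrays of replicate 2, at 543.6 and 439.3, lie below the other 4.

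The alpha subunit gene Inha (probe set 1387124_at) varied widely between arrays of the same group. Its signal on the control arrays, in the order of their replicate numbers, was 996.9, 543.6 and 896.0, and on the NT3 arrays it was 977.3, 439.3 and 1229.1. The lowest and the highest of the 6 values were both in NT3, and in each group replicate 2 was the lowest array. The control mean was 812 ± 238 and the NT3 mean 882 ± 403 (SD, n = 3). By limma, NT3 against control gave a log2 fold change of 0.040 ± 0.36 (SE, adjusted p 1.00), with a 95% interval from 0.58-fold to 1.81-fold. Without control replicate 2 it was -0.23 ± 0.35, and the sign also turned without NT3 replicate 3, at -0.26. When the fit took the replicate number as a block, it gave 0.040 ± 0.15 (adjusted limma p 1.00), both replicate 2 arrays being low. Within pairs of equal number, NT3 minus control was -0.029, -0.31 and 0.46 on the log2 scale, higher in NT3 in 1 of 3 pairs.

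The beta A subunit gene Inhba had its higher signal in probe set 1383486_at. That signal was 484.5, 379.0 and 611.4 in control and 376.5, 329.9 and 664.9 in NT3. Replicate 3 was the highest array and replicate 2 the lowest in both groups, and the groups overlapped. The means were 492 ± 116 and 457 ± 181 (SD, n = 3). The log2 fold change was -0.15 ± 0.27 (adjusted limma p 1.00), with an interval from 0.59-fold to 1.37-fold. It was -0.32 ± 0.26 without control replicate 2. The second Inhba probe set (1369012_at) gave 35.8, 38.6 and 66.8 in control and 84.4, 16.4 and 27.7 in NT3. Its mean log2 signal was below that of the filter, a signal of 41.3, although 2 of the 6 arrays were above it, and it did not order the arrays as the first did.

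The beta B subunit gene Inhbb (1377163_at) had signals of 524.4, 358.9 and 547.8 in control and 386.8, 421.0 and 559.2 in NT3. The groups covered almost the same range, with the lowest array in control and the highest in NT3. Its log2 fold change was -0.060 ± 0.20 (adjusted limma p 1.00), an interval from 0.71-fold to 1.30-fold, and -0.25 ± 0.15 without control replicate 2. All 3 subunit genes had a lower fitted value in NT3 once that array was left out, and each had a limma adjusted p of 0.999 in that fit. With both replicate 2 arrays left out, the direction was not shared. Inha was then higher in NT3, at 0.21 ± 0.13, beside -0.12 ± 0.24 for Inhba and -0.20 ± 0.17 for Inhbb.

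The 3 subunit genes are shown with the 250 bases before their transcription start. All 3 had their lowest control signal in replicate 2 and their highest NT3 signal in replicate 3, which was noticed after the values were seen. This was not particular to them. The brightest Acvr1 probe set had it, at 346.7 and 382.2, and so did the oocyte gene Gdf9, at 1150.2 and 1687.3. The share of all probe sets with this order was not counted. The sequences are from RefSeq, build GRCr8, on the strand of the gene and 5′ to 3′. They lie at chr9:84442859-84443108 on the plus strand for Inha, chr17:53804509-53804758 on the minus strand for Inhba and chr13:33089374-33089623 on the minus strand for Inhbb. Capitals mark matches, on either strand, to TGACGTCA (the cAMP response element), TGCGTCA and TGATGTCA (variants of it), AGGTCA (bound by nuclear receptors), AGATAA (bound by factors of the GATA family), TATAAA (the box near many starts) and GGGCGG (bound by Sp factors).
Inha: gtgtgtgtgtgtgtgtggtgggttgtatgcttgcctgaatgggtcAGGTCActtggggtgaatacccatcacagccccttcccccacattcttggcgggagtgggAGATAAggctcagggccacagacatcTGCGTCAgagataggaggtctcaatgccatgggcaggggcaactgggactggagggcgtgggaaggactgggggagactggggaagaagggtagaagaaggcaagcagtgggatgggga
Inhba: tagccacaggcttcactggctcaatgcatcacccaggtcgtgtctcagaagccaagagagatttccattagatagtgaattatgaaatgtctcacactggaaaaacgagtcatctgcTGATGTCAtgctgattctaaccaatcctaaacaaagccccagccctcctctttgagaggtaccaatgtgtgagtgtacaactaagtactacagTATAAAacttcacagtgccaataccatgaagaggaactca
Inhbb: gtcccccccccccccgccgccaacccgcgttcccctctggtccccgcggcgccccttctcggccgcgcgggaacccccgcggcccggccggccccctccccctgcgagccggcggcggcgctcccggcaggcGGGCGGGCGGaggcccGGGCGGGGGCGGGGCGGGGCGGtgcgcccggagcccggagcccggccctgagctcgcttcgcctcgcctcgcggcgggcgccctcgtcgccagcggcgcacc

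None of the 7 motifs was found in more than 1 of the 3 windows. In Inha, TGCGTCA starts 119 bases before the transcription start, AGATAA 145 and AGGTCA 205 bases before it. Among all 33469 such windows of the reference, 1.66% hold TGCGTCA, 10.3% AGATAA and 14.1% AGGTCA. Inhba holds TGATGTCA and TATAAA, starting 133 and 40 bases before it, found in 3.8% and 12.9% of windows. Inhbb holds 6 matches of GGGCGG, some overlapping each other, and 30.5% of windows hold at least 1. The full element TGACGTCA is in none of the 3 windows and in 1.59% of all. The windows also differed in base composition, with 58.4% G and C for Inha, 43.6% for Inhba and 86.8% for Inhbb, beside a median of 51.2%. These matches describe the letters only and were not tested against the signals.

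The balance between the subunits and their binding protein was compared as the difference of log2 signals within each array. Since probe sets differ in brightness, only the change of such a difference between the groups can be read. Inha minus Inhba was 1.04, 0.52 and 0.55 in control and 1.38, 0.41 and 0.89 in NT3, which overlap. The mean was higher by 0.19 in NT3 (2-sided exact permutation p = 0.7). Inha minus Inhbb was 0.93, 0.60 and 0.71 in control and 1.34, 0.061 and 1.14 in NT3, a change of 0.10 with an exact permutation p of 0.9. Without control replicate 2 the changes of Inha minus Inhba and Inha minus Inhbb were 0.096 and 0.027. NT3 replicate 2 was the array with the least Inha relative to either beta subunit. Fst minus Inhba changed by 0.10 and Fst minus Inhbb by 0.013, both with an exact permutation p of 1, and by 0.55 and 0.48 without control replicate 2. Across the 4 comparisons every adjusted permutation p was 1, and with 3 arrays a side no p below 0.1 can be reached.

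**Figure D2:**
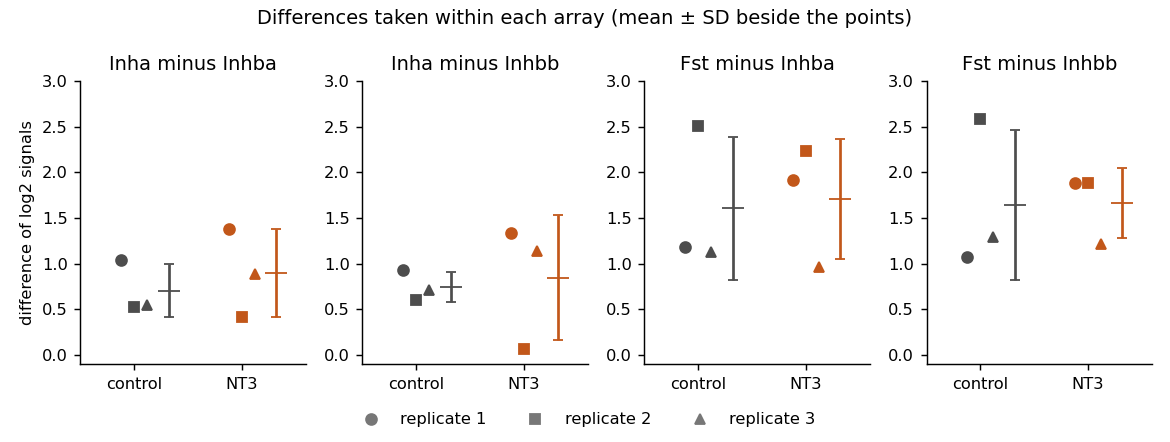
Difference of log2 signals within each array (vertical axis) for Inha and Fst against each beta subunit gene, with 3 control and 3 NT3 arrays per panel, marker shapes for the replicate number and bars for the mean ± SD. The groups overlap in all 4 panels, and Fst minus Inhbb is highest in control replicate 2, at 2.59.

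Follistatin transcripts did not pass the test either, and the 2 probe sets of Fst disagreed on single arrays. The brighter one (1387843_at) gave 1098.8, 2155.2 and 1335.6 in control and 1421.5, 1552.8 and 1299.6 in NT3. Control replicate 2 was the highest array and control replicate 1 the lowest, so that all NT3 values lay between controls. Its log2 fold change was -0.047 ± 0.22 (adjusted limma p 1.00), with an interval from 0.69-fold to 1.36-fold, and 0.23 ± 0.12 without control replicate 2. The other probe set (1372750_at) gave 754.1, 776.4 and 869.6 in control and 708.9, 843.1 and 739.8 in NT3. There control replicate 2 was not raised, and the log2 fold change of -0.068 ± 0.11 was -0.088 without it. The 2 probe sets of this gene thus had opposite signs in the fit without control replicate 2. The high signal of that array on the first probe set stands beside its high 3′ to 5′ ratios, whose part in it was not tested.

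Fstl3 and Fstl1 encode secreted relatives of follistatin. Fstl3 (1379440_at) had signals of 118.0, 88.9 and 99.0 in control and 122.2, 95.6 and 87.1 in NT3, with a log2 fold change of -0.0098 ± 0.20, and -0.10 ± 0.20 without control replicate 2. Its second probe set (1370120_at), at 21.9 to 39.8, was below the filter on all 6 arrays. Fstl1, whose product carries a follistatin-type domain but is known more for effects on BMP signalling than for binding activin, was read by 3 probe sets. The brightest (1368822_at) gave 1885.2, 2364.3 and 1674.2 in control and 2213.4, 1884.6 and 2193.8 in NT3, and the groups overlapped through control replicate 2 and NT3 replicate 2. The log2 fold change was 0.098 ± 0.14 with an adjusted limma p of 1.00. Without control replicate 2 it was 0.24 ± 0.10, with an unadjusted limma p of 0.0492 and an adjusted p of 0.999. With both replicate 2 arrays left out it was 0.31 ± 0.10, with an unadjusted limma p of 0.0123 and an adjusted p of 0.999. With the replicate block and control replicate 2 left out it was 0.31 ± 0.091, with an unadjusted limma p of 0.00413 and an adjusted p of 0.640. NT3 replicate 2 has no partner in that fit, so the value rests on replicates 1 and 3 only, as in the fit before it. The second probe set (1371331_at) had 0.050 ± 0.12 and, without control replicate 2, 0.12 ± 0.11. With the block as well it was 0.20 ± 0.090, with an unadjusted limma p of 0.0396 and an adjusted p of 0.929. The third (1368821_at) had 0.15 ± 0.26 and, without control replicate 2, -0.19, that array reading 171.6 beside 375.8 and 313.4 in controls 1 and 3.

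Among the receptor genes, neither of the activin type II receptors passed the test. Acvr2a (1381220_at) gave 123.7, 110.5 and 110.0 in control and 122.3, 119.6 and 126.7 in NT3. Its log2 fold change of 0.10 ± 0.15 had an interval from 0.84-fold to 1.36-fold, an adjusted limma p of 1.00, and higher values in NT3 in 2 of 3 pairs of equal number. Acvr2b (1388179_at) gave 102.2, 170.2 and 88.4 in control and 110.6, 106.0 and 103.1 in NT3. The 3 NT3 arrays were close together while control replicate 2 was far above the rest, and the log2 fold change of -0.12 ± 0.24 became 0.16 ± 0.17 without that array.

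Acvr1 encodes a type I receptor that signals mainly for BMPs and can also bind activin, and its 3 probe sets gave 3 different pictures. The brightest (1379217_at) varied least of the 16 over the arrays, with 346.7 to 368.7 in control and 351.3 to 382.2 in NT3 and a log2 fold change of 0.017 ± 0.11, which was -0.0069 ± 0.11 without control replicate 2. The second (1385069_at) gave 138.1, 136.6 and 146.8 in control and 104.7, 127.9 and 109.2 in NT3. The 3 NT3 values were all under the 3 control values, and NT3 was lower in 3 of 3 pairs of equal number. The means were 141 ± 5.51 and 114 ± 12.3 (SD, n = 3). The log2 fold change was -0.31 ± 0.16, with an unadjusted limma p of 0.0825 and an adjusted p of 1.00, and 2.91% of all tested probe sets had a lower p. Leaving out control replicate 2 gave -0.33 ± 0.16. With the replicate block as well it was -0.41 ± 0.18, with an unadjusted limma p of 0.0362 and an adjusted p of 0.929. NT3 replicate 2 has no partner in that last fit, so its value rests on replicates 1 and 3 only. The third probe set (1398277_at) ranged from 30.8 to 71.4 in control and 54.1 to 69.8 in NT3, with 0.26 ± 0.32 and, without control replicate 2, -0.10. The lower NT3 signal of the second probe set was therefore not shared by the brightest probe set of the same gene.

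**Figure D3:**
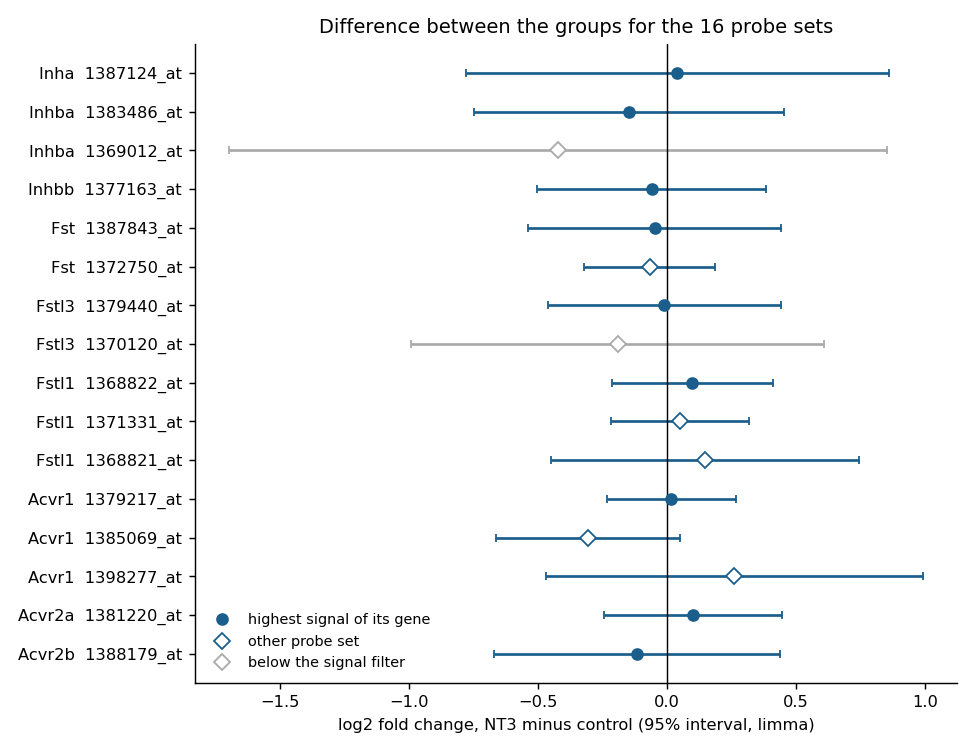
Log2 fold change, NT3 minus control (horizontal axis), with its 95% interval by limma for the 16 probe sets; filled circles are the brightest probe set of each gene, open diamonds the others, and grey marks those below the signal filter. All 16 intervals cross 0, and the second Acvr1 probe set, at -0.31, comes nearest to leaving it out.

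On some probe sets the arrays of replicate 2 stood together in both groups. On Inha, the third Fstl1 probe set and the brightest Acvr1 probe set, both arrays of replicate 2 lay below the other 4 arrays, and on the brighter Fst probe set both lay above them. This pattern was noticed after the values were seen. It held for 3 of 14 tested member probe sets in the lower direction, against 13.5% of all tested probe sets, and for 1 of 14 in the upper, against 14.4%. The members' counts are thus near the background of the whole array. The mean signal of Inha over both groups was 987 in replicate 1, 491 in replicate 2 and 1063 in replicate 3, and that of Inhba 431, 354 and 638.

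Some marker genes of ovarian cells also stood apart on the replicate 2 arrays. Of the 11 listed markers of surface and oviduct epithelium, 9 were in the annotation and 0 of them were at 0. Their summed signal was 11774 in control replicate 2 and 11679 in NT3 replicate 2, against 7261 to 8591 on the other 4 arrays. Krt19 alone gave 7363.3 and 7191.2 of the replicate 2 sums. Krt8, Krt18, Krt19, Krt7 and Msln were above the other 4 arrays on both, and Cdh1, Pax8, Wfdc2 and Cldn3 were not. Of 12 listed granulosa markers 11 were in the annotation, 3 of which are Inha, Inhbb and Fst, and 0 were at 0. Their summed signal ranged from 10752 to 12549 in control and from 11477 to 11988 in NT3, and bright probe sets such as Gja1, the gene of a gap junction protein, at 4144 to 5777, carry most of such a sum. Besides Inha, 2 of the 11 were lower on both replicate 2 arrays than on the other 4. Nr5a2, the gene of a nuclear receptor of granulosa cells, had 363.3 in control replicate 2 and 270.1 in NT3 replicate 2, and Hsd17b1, which encodes an estrogen-forming enzyme, had 65.4 and 53.6. Wt1, Gja1 and Fst went the other way and were higher on both replicate 2 arrays than on the other 4. Wt1 had 2256.7 and 2633.4 there, against 2148.3 to 2219.7. Of all tested probe sets, 13.5% lay below and 14.4% above the other 4 in this way. The summed signal of the 7 theca and steroid-cell markers in the annotation, of 8 listed, was also lowest on the replicate 2 arrays, at 842.8 in control replicate 2 and 637.0 in NT3 replicate 2 against 970.6 to 1180.8 on the other 4, with 0 members at 0. Hsd3b1, at 492.8 and 368.1 on these arrays, carried most of that sum. Of the 7, 2 were lower on both replicate 2 arrays than on the other 4, Hsd3b1 and Star. Cyp11a1 was highest in control replicate 2, at 31.0. The sum over 8 of 14 oocyte markers ranged from 14881 to 16257 in control and from 13340 to 16392 in NT3, lowest in NT3 replicate 2, also with 0 members at 0. The part of these differences in the low Inha signal was not tested. In all 10 lists of cell type markers, 0 genes had an adjusted p under 0.05.

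**Figure D4:**
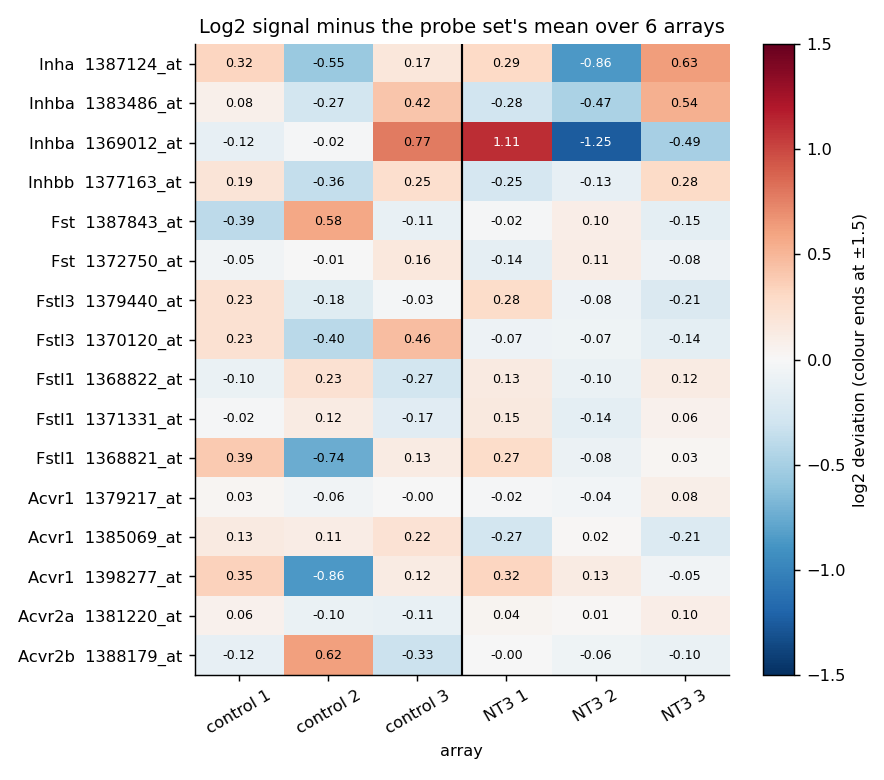
Log2 signal of the 16 probe sets (rows) on the 6 arrays (columns) minus each probe set's mean over the arrays, printed in each cell and coloured from blue (below) to red (above). Inha reads -0.55 in control replicate 2 and -0.86 in NT3 replicate 2, and the Acvr2b signal of control replicate 2 stands 0.62 above its mean.

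The genes whose log2 signal followed each ligand or binding protein most closely over the 6 arrays are given as a description. They were the highest of 14169 probe sets compared on 6 arrays, a search in which some high coefficients occur in any case. For Inha these were Cenpe and Cenpf, which encode kinetochore proteins of dividing cells, and Ubr7, with Pearson coefficients of 0.997, 0.989 and 0.988. Cenpe had 272.5, 188.1 and 264.0 in control and 263.9, 168.9 and 314.2 in NT3, low on both replicate 2 arrays as Inha was. For Inhba they were Grhl1, Zfp326 and Timm17a, at 0.992, 0.991 and 0.985, and for Inhbb Xpr1, Osgin2 and Dpf3, at 0.998, 0.997 and 0.996. For Fst they were Mtcl2, Rpsa, the gene of a ribosomal protein, and Chchd2l3, at 0.999, 0.996 and 0.996.

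Other genes of the same signalling system gave no call in any of 6 lists. Of 25 signalling partners of activin and inhibin, 20 were in the annotation and 16 were tested, with 5 higher, 11 lower, 0 called and a median log2 fold change of -0.032, which was -0.0088 without control replicate 2. Smurf2, a ubiquitin ligase that marks TGF-beta family receptors and SMAD proteins for breakdown, had 0.35 ± 0.15 with an unadjusted limma p of 0.0455 and an adjusted p of 1.00. Its value was 0.23 ± 0.13 without control replicate 2. Smad7, an inhibitory SMAD, had -0.22 ± 0.17, and -0.34 ± 0.15 without control replicate 2 (unadjusted limma p 0.0481, adjusted p 0.999). Fkbp1a, whose product holds type I receptors inactive, had 0.068 ± 0.095, and Bambi, a decoy receptor, had -0.020 ± 0.14, and -0.084 without that array. Acvr1c, Inhbc, Inhbe and Tgfbr3, the gene of betaglycan, were below the filter. The main type I receptor gene of activin, Acvr1b, had no probe set under its name alone and was not analysed here.

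Among 13 tested genes listed as ligands of the family, 7 were higher and 6 lower, with a median of 0.014, which was 0.11 without control replicate 2, and 0 called. The list also held Bmp1, at -0.10 ± 0.19, which encodes a protease and not a ligand. Its signals were 169.3, 269.4 and 180.2 in control and 189.2, 186.8 and 187.8 in NT3. Only control replicate 2 lay above the NT3 values, and no fit of Bmp1 without that array is given. Amh, the anti-Müllerian hormone gene, had -0.32 ± 0.19, Bmp3 0.48 ± 0.25, the oocyte gene Gdf9 -0.18 ± 0.24 and Tgfb3 -0.019 ± 0.15. Without control replicate 2 the values of Bmp3, Gdf9 and Tgfb3 were 0.27, -0.37 and 0.11. Of 5 tested other receptors, 2 were higher, 3 lower and 0 called, with a median of -0.030, which was -0.076 without control replicate 2. Eng, the gene of the co-receptor endoglin, had 0.35 ± 0.22. Without control replicate 2 it had 0.62 ± 0.12, with an unadjusted limma p of 0.000683 and an adjusted p of 0.999, and without both replicate 2 arrays 0.58 ± 0.14, with 0.00276 and 0.999 by limma. The type II BMP receptor gene Bmpr2 had -0.11 ± 0.21, the AMH receptor gene Amhr2 -0.061 ± 0.16 and Tgfbr1 0.063 ± 0.14. Without control replicate 2 they had -0.17, 0.076 and -0.076, in the same order. Of 11 tested genes listed as secreted antagonists, 6 were higher, 5 lower and 0 called, with a median of 0.052. That name is loose, since the list also held the latent TGF-beta binding protein genes Ltbp1, Ltbp2, Ltbp3 and Ltbp4. Dcn, the decorin gene, had 0.17 ± 0.14, and -0.0042 without control replicate 2. Twsg1 and Ltbp4 had 0.091 ± 0.096 and 0.081 ± 0.13, and 0.048 and 0.19 without that array.

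Of 7 tested genes of other proteins with a follistatin-type domain, 4 were higher and 3 lower, with a median of 0.071 and 0 called. Igfbp7, a secreted binding protein, had 0.32 ± 0.13, an unadjusted limma p of 0.0320 and an adjusted p of 1.00, and its NT3 values all exceeded its control values. Without control replicate 2 it had 0.21 ± 0.10. Sparc, which encodes a matrix protein, had 0.089 ± 0.15, and 0.23 ± 0.12 without that array, and Smoc1 had -0.13 ± 0.11. Of 7 tested FSH response and estrogen genes of granulosa cells, 2 were higher, 5 lower and 0 called, with a median of -0.026. That median was -0.20 without control replicate 2 and -0.023 without both replicate 2 arrays. The cell cycle gene Ccnd2 had 0.14 ± 0.14, the LH receptor gene Lhcgr -0.46 ± 0.28 at a mean signal of 44.1, and Prkar2b, a kinase A subunit gene, -0.026 ± 0.17, which was -0.20 without control replicate 2. Cyp19a1, the aromatase gene, was below the filter at 13.8 to 26.0, and Fshr was not analysed here. Esr1, Esr2 and Cyp11a1 were below the filter too and were not tested. Their NT3 signals all lay under their control signals, for Cyp11a1 at 11.1 to 18.9 against 27.8 to 31.0. Over all tested probe sets, 5.83% had groups that did not overlap.

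**Figure D5:**
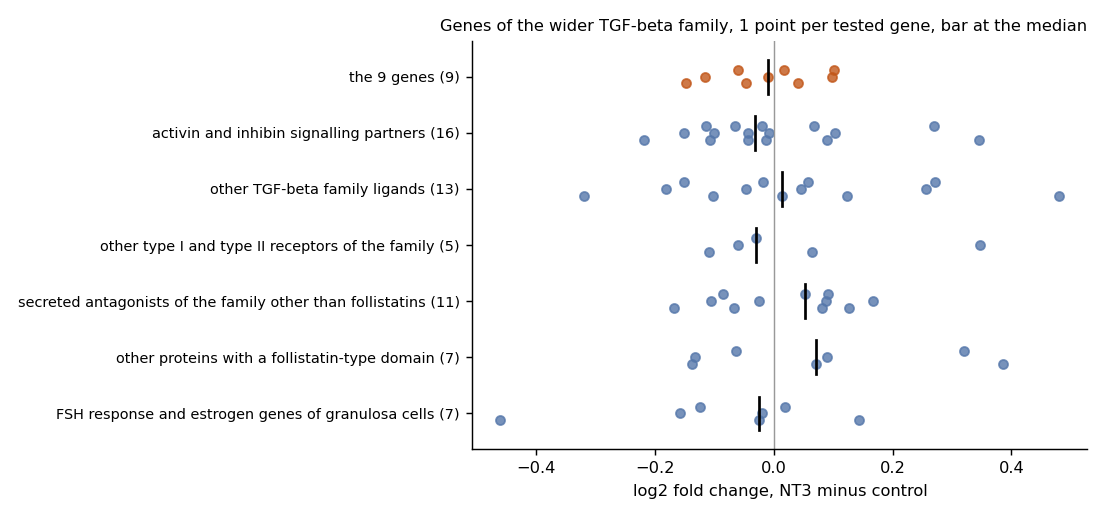
Log2 fold change, NT3 minus control (horizontal axis), of the 9 genes and of the tested genes in 6 lists of the wider TGF-beta family system (rows, number of genes in brackets), 1 point per gene by its brightest probe set, with a bar at the median. Every list lies on both sides of 0, with medians from -0.032 to 0.071.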

How the data were processed

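RNA from 3 control and 3 NT3 samples was measured on Affymetrix 1-colour arrays. The deposited values are intensities, 1 for each probe set on each array, made by the authors with MAS5 per the submitters' processing notes. MAS5 settings were not given in the sources used here. Trimmed means of the 6 arrays lay between 210.056 and 210.06. The 57 control probe sets were removed, and log2 was taken with 0.1 as a floor, which touched 5 probe sets with a 0. A filter at the 40th percentile of the mean log2 signal (41.3 as a signal) left 18625 of 31042. NT3 was compared with control with limma 3.58.1 (R 4.3.3), with lmFit and a trended eBayes, 2-sided, with Benjamini-Hochberg adjustment over all kept probe sets. Each gene was represented by its brightest probe set. The fit was tested on simulated data.

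The annotation gave 1 symbol to 20826 probe sets, and 9 of 9 members kept their symbol in the RefSeq table of GRCr8, which gave upstream windows for 7. Members and lists were chosen with earlier results of these data known. Every member was named, and from each list the 2 genes with the lowest p, the 2 brightest and any with an unadjusted p under 0.05. For Inha, Inhba, Inhbb and Fst the 3 genes with the highest Pearson coefficient were named. The deviations of equal replicate numbers from their group means correlated at 0.230, 0.247 and 0.222 over probe sets, so the numbers were taken to pair the samples, from the data and not from the labels. Alternatives were the replicate block, quantile normalization, median centring, other filters, an offset of 16, no trend, array weights, arrays left out and averaging over a gene's probe sets.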

Additional observations from a re-analysis of the deposited data

How the results depend on the processing

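No member had an adjusted limma p under 0.05 under any of the alternatives run. The count over all probe sets was 0 in each of them except 1. With the replicate number as a block and control replicate 2 left out it was 4, none of them a member. NT3 replicate 2 has no partner in that fit, so its group difference rests on replicates 1 and 3 only. At an unadjusted p under 0.05 the count was 240, and 401 with the replicate block, 656 without control replicate 2 and 962 with both. It was 752 with no filter, 123 with the filter at the 60th percentile, 377 with no trend, 585 with array weights, 420 without control replicate 3 and 514 without both replicate 2 arrays. The replicate block moved no member past the threshold. The fold changes kept their sign under the other normalizations, filters, the offset and no trend. Signs that turned belonged to values that had not passed the test, and the cause was not tested.

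Leaving out 1 array at a time moved the log2 fold changes of Inha from -0.26 (without NT3 replicate 3) to 0.48 (without NT3 replicate 2), Inhba from -0.45 (without NT3 replicate 3) to 0.053 (without NT3 replicate 2), Inhbb from -0.25 (without control replicate 2) to 0.052 (without control replicate 3), Fst from -0.26 (without control replicate 1) to 0.23 (without control replicate 2), Fstl3 from -0.15 (without NT3 replicate 1) to 0.10 (without control replicate 1), Fstl1 from -0.013 (without control replicate 3) to 0.24 (without control replicate 2), Acvr1 from -0.021 (without NT3 replicate 3) to 0.040 (without NT3 replicate 2) and Acvr2b from -0.31 (without control replicate 3) to 0.16 (without control replicate 2), each across 0. The Acvr2a value and that of Acvr1 1385069_at kept their sign. Other probe sets and list genes, for which the alternatives were chosen after seeing the data, that crossed 0 were Fstl1 1371331_at from -0.022 to 0.13, Fstl1 1368821_at from -0.19 to 0.38 and Acvr1 1398277_at from -0.10 to 0.50, and Bambi from -0.16 to 0.11, Tgfb3 from -0.15 to 0.11, Gdf9 from -0.37 to 0.077, Tgfbr1 from -0.076 to 0.15, Bmpr2 from -0.25 to 0.11, Amhr2 from -0.18 to 0.077, Dcn from -0.0042 to 0.27, Sparc from -0.018 to 0.23, Ccnd2 from -0.016 to 0.26 and Prkar2b from -0.20 to 0.10. The within-array differences ran for Inha minus Inhba from -0.054 to 0.43, Inha minus Inhbb from -0.15 to 0.49, Fst minus Inhba from -0.16 to 0.55 and Fst minus Inhbb from -0.28 to 0.48.

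With array weights the turned values were Inha -0.15, Fst 0.18, Acvr1 -0.011, Acvr2b 0.10, Tgfb3 0.062, Tgfbr1 -0.064 and Fstl1 1368821_at -0.075. With both replicate 2 arrays left out, and equally with the block and control replicate 2 left out, they were Fst 0.17, Acvr2b 0.17, Bambi 0.050, Tgfb3 0.035, Tgfbr1 -0.053, Fstl1 1368821_at -0.11 and Acvr1 1398277_at -0.10. With the mean of its probe sets, Acvr1 had -0.0095. The Acvr1 probe set 1385069_at reached an unadjusted limma p under 0.05 with no trend, with array weights, with both replicate 2 arrays left out, and with the block and control replicate 2 left out, where Fstl1 1368822_at and 1371331_at did so as well. In these fits, in the same order, 1, 1, 2 and 3 of the 14 member probe sets were under 0.05. Among all 18625 tested probe sets the counts were 377, 585, 514 and 962.

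The limits are the 3 arrays per group, the median standard error of 0.20, and a signal over background that is not known here, since no detection calls were used.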
